A study of Homo sapiens with 2 samples.

Results

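The members described here are 10 genes of bone morphogenetic protein (BMP) signalling and of the ID family: the ligands BMP2, BMP4 and BMP7, the receptors BMPR1A and BMPR2, the inhibitor SMAD6, and ID1, ID2, ID3 and ID4. They were measured in Ca9-22, a human oral cancer line of gingival origin, after stable transduction with either an empty control vector or one that carries RUNX2, a runt-domain transcription factor known for its part in bone formation. Cells of both groups had been selected with blasticidin for 2 weeks, and each group is 1 array, so there is no replicate, no test and no p-value, and precision is limited by having 1 array on each side. Whether the transduced cells were a pool or 1 clone, which promoter drove RUNX2 and when the RNA was taken after selection are not given in the sources used here. Members were found as probe sets that the platform annotation assigns to 1 of these genes alone. This gave 26 probe sets for 9 of the 10 genes, out of 19775 genes named in this way on the array. BMPR1A had no probe set under that rule and was not analysed here. The set was chosen by pathway with the higher values of ID2 and BMP2 on these same arrays already known, so its values are a description and support nothing by themselves.

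BMP ligands are secreted dimers. They bring together type I receptors such as BMPR1A and type II receptors such as BMPR2, which are serine-threonine kinases, and the type I receptor then phosphorylates SMAD1, SMAD5 or SMAD9, which enter the nucleus with SMAD4. SMAD6 is an inhibitory SMAD that is itself induced by the pathway. The ID genes are among the best known direct targets of BMP signalling, and their proteins bind basic helix-loop-helix factors without binding DNA. In stratified epithelium, ID proteins are linked to proliferating, undifferentiated keratinocytes. RUNX proteins bind the core letters TGTGGT or TGCGGT and can form complexes with the SMAD proteins of this pathway.

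The upstream sequences of 4 members are shown because they differ in whether they hold the RUNX core letters and in how their SMAD letters are arranged. They are the 250 bases before the annotated start in RefSeq on GRCh38.p14, printed 5' to 3' on the strand of the gene. Capitals mark the RUNX core letters TGTGGT and TGCGGT, the SMAD box GTCT and the GC-rich SMAD letters GGCGCC, on either strand.
BMPR2 (chr2:202376077-202376326, plus strand): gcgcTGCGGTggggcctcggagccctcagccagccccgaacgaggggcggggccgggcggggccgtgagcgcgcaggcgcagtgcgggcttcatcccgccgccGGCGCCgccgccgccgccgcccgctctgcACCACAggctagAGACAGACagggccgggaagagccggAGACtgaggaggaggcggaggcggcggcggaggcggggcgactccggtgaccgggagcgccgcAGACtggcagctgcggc
BMP4 (chr14:53953396-53953645, minus strand): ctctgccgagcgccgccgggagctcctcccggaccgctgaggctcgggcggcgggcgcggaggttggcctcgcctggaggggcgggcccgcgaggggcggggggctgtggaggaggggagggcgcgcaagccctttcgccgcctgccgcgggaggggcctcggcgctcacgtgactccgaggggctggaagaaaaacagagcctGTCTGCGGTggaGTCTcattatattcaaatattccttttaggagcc
ID2 (chr2:8681806-8682055, plus strand): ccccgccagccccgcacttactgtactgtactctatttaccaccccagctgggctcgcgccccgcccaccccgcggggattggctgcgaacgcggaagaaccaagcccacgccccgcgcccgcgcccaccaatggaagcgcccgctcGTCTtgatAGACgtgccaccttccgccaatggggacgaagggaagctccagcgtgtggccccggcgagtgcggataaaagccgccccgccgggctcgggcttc
SMAD6 (chr15:66701986-66702235, plus strand): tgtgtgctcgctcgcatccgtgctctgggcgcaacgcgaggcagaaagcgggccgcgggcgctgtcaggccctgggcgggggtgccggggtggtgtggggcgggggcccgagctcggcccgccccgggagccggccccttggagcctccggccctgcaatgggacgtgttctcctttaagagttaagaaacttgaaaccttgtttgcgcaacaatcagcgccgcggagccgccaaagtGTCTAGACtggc

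In the BMPR2 window the RUNX core letters stood at -246 to -241 on the strand of the gene and at -118 to -113 on the opposite strand, with 1 GC-rich match at -147 to -142 and 4 SMAD boxes. The BMP4 window shown, 1 of 3 annotated starts of that gene, held TGCGGT at -43 to -38. Its first base is also the last base of a SMAD box at -46 to -43. Another BMP4 window held TGTGGT at -41 to -36, and the third held no RUNX core. No RUNX core letters were found in the windows of ID1, ID2, ID3, ID4, SMAD6 or BMPR1A. BMP2 and BMP7 had no window and were not searched. The ID2 window held GTCT at -103 to -100 and its reverse complement at -95 to -92, and the ID3 window held the same pair at -158 to -155 and -146 to -143. In SMAD6 the pair is joined as the palindrome GTCTAGAC, at -12 to -5. Over all 35116 windows of this length, 16.3% held a RUNX core, 16.4% the GC-rich letters, 77.5% a SMAD box and 0.182% the palindrome. A SMAD box is thus the usual state of such a window. GC content was 79.2% in the BMPR2 window, 70.4% in the BMP4 window shown, 69.2% in ID2 and 68% in SMAD6, against a median of 58% over all windows. A match is a run of letters, not a measured site, and matching letters outside 250 bases were not searched.

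Of the 26 probe sets, 17 were measured, which means above the median intensity of its array (the floor, 55.3 for the empty vector and 51.8 for the array labelled RUNX2) on at least 1 array. Of these, 14 were above the floor on both arrays and 3 on the array labelled RUNX2 alone. The array labelled RUNX2 had first been scaled to the trimmed mean of the empty vector array. Each of the 9 genes with a probe set had at least 1 measured, and the one of highest mean log2 intensity stands for the gene. Intensities of different probe sets are not compared with each other, since probes differ in how well they bind. Log2 ratios are the array labelled RUNX2 over empty vector. The nearest thing to an error here is how far the probe sets of a gene differ in log2 ratio, with an SD of 0.29 over 6165 genes. This is a spread within the pair of arrays, not between cultures. It includes ratios in which a value under the floor was raised to it, and its sources were not tested.

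The labels could be checked only in part. RUNX2 probe sets went from 204 to 854 (216994_s_at) and from 102 to 353 (221282_x_at), but from 1746 to 433 in 232231_at. The remaining RUNX2 probe sets were under the floor on both arrays. The second array is therefore called by its label, and each direction rests on that label. The 7 keratinocyte markers on the array were measured. KRT14 (586.5 and 1579), KRT5 (8842 and 12580) and SFN (10612 and 14689) were higher on the array labelled RUNX2. PERP (12040 and 12918), CDH1 (3545 and 3580) and DSG3 (1919 and 1819) differed little, and PKP1 was lower (1314 and 1111.5). Of the markers of other cell types with a probe set, 2 of 8 fibroblast genes (COL1A1 at 1937 and 1553, and THY1 near the floor), 2 of 5 endothelial genes, 1 of 5 leukocyte genes and 0 of 4 osteoblast genes were measured. The summed intensity of the measured fibroblast markers was 2008 and 1602, nearly all of it from COL1A1, so it is not a level of fibroblast markers in general. The part of other cells in the results was not tested, and in RNA from whole cultures, fewer cells of a type cannot be told apart from less RNA per cell.

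Higher values on the array labelled RUNX2 prevailed among the members. BMP2 and ID2 passed 2-fold upwards and 0 members passed it downwards, whereas 1.42% of all 12729 measured genes did so upwards and 1.47% downwards. At 1.5-fold, 5 members were higher (ID2, BMP2, ID3, BMPR2 and BMP4) and 0 lower, against 5.77% and 6.88% of all measured genes. The median log2 ratio of the 9 members was 0.74 and that of all measured genes was -0.06. It was 0.39 with the mean over probe sets of each gene and 0.45 with an offset in place of a floor. Because the members were picked with part of these values in view, nothing is read from that gap. BMP7 was the member with a ratio below 0.

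**Figure D1:**
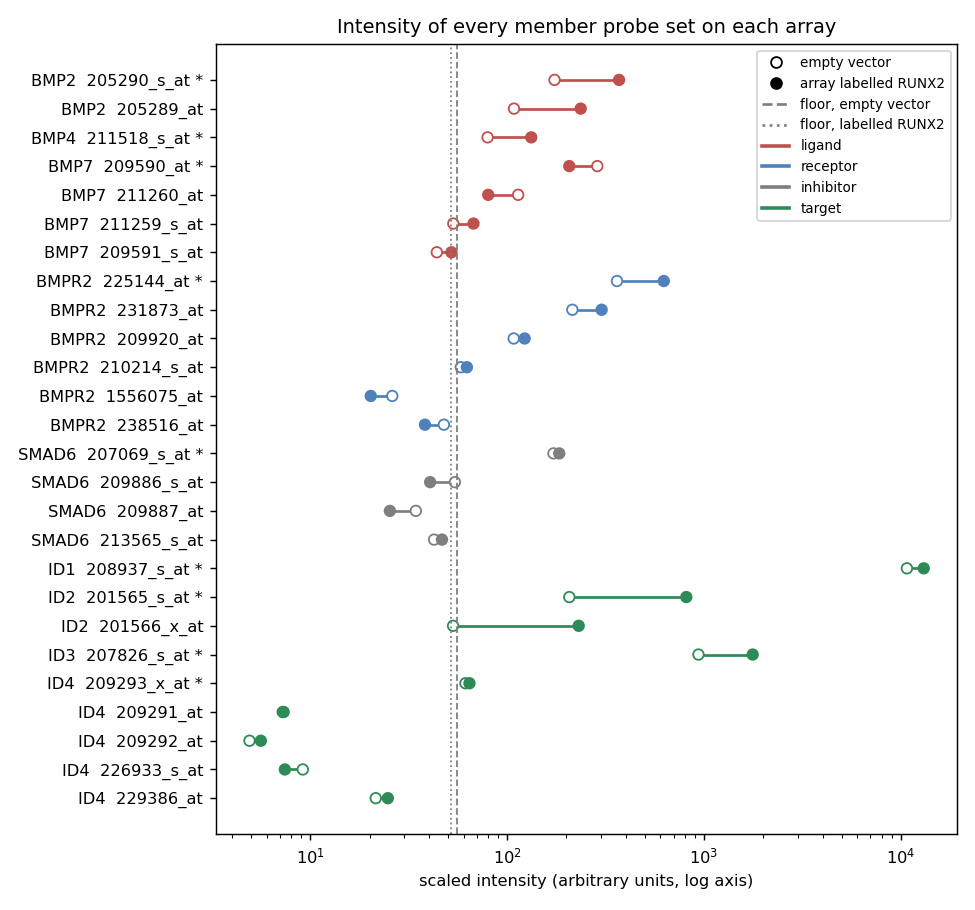
Scaled intensity (arbitrary units, log axis) of all 26 member probe sets on the empty vector array (open circles) and the array labelled RUNX2 (filled circles). Colours give the role, vertical lines the floor of each array, and an asterisk the probe set that stands for its gene. The longest lines to the right belong to the 2 probe sets of ID2 and the 2 of BMP2, while the open and filled circles of ID1, ID4 and SMAD6 lie close together in the marked probe set.

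Among the ligands, BMP2, a strong inducer of bone and cartilage formation, had 2 probe sets and both were higher. Intensity in 205290_s_at went from 174 on the empty vector array to 370 on the array labelled RUNX2, a 2.13-fold difference with a log2 ratio of 1.09. In 205289_at it went from 108 to 236, or 2.18-fold. The log2 ratios of the pair, 1.09 and 1.13, lie closer together than the usual spread between probe sets of a gene. BMP2 ranked 146 of 12729 measured genes from the top, and both probe sets lie just beyond the 2-fold threshold.

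BMP4, a close relative of BMP2 that acts through the same receptors, had a single probe set, 211518_s_at. Its intensity went from 79.5 to 132, which is 1.67-fold and a log2 ratio of 0.74. The lower value stands not far above the floor of 55.3, and no second probe set is at hand to set beside it.

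BMP7, which also signals through BMPR2, went the other way in its brighter probe sets. Intensity in 209590_at went down from 287 to 207, a log2 ratio of -0.47 or 1.39-fold lower. In 211260_at it was 114 and 80.1, a log2 ratio of -0.51. The remaining probe sets were dim. In 211259_s_at, intensity was 53.2, under the floor, and 67.4, so that it was at least 1.22-fold higher, and in 209591_s_at it was 43.9 and 52.1, where the second value barely passes the floor and no fold is given. The 4 probe sets of BMP7 therefore did not all point in 1 direction. A 1.39-fold difference is within what 10.9% of all measured genes exceeded downwards.

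For the type II receptor BMPR2, 4 of 6 probe sets were above the floor on both arrays and each was higher on the array labelled RUNX2, by unequal amounts. The brightest, 225144_at, went from 361 to 624, a log2 ratio of 0.79 or 1.73-fold. The next, 231873_at, went from 214 to 302, or 1.41-fold. Closer to the floor, 209920_at read 108 and 123, with a log2 ratio of 0.18, and 210214_s_at read 58.1 and 62.4, with 0.10. The ratio thus became smaller with each dimmer probe set. Both remaining probe sets were under the floor on both arrays (26.1 and 20.3 in 1556075_at, 47.7 and 38.2 in 238516_at). Averaged over its measured probe sets, BMPR2 had a log2 ratio of 0.39, which is under 1.5-fold.

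SMAD6, the inhibitory SMAD, differed little. Its measured probe set, 207069_s_at, read 172 and 184, a log2 ratio of 0.10. The other 3 were under the floor on both arrays, at 25.4 to 54.2. In the order of ratios SMAD6 stood above 67.5% of all measured genes.

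The 4 ID genes spread widely among themselves. ID2 had the largest ratio of the members. Its probe set 201565_s_at went from 207 on the empty vector array to 812 on the array labelled RUNX2, which is 3.93-fold and a log2 ratio of 1.97. In 201566_x_at, whose name marks probes that may also match other transcripts, intensity went from 53.1, just under the floor, to 231, so that it was at least 4.17-fold higher. The second value is a lower bound, since that probe set passed the floor on the array labelled RUNX2 alone. ID2 ranked 23 of 12729 measured genes by its brighter probe set. With _x_at and _s_at probe sets left out, no probe set of ID2 remained. A probe set that ID2 shares with the pseudogene ID2B, 213931_at, was 2.28-fold higher, less than in 201565_s_at. Of the 6165 genes that more than 1 measured probe set reads, 31 (0.503%) passed 2-fold upwards in every one of them, ID2 and BMP2 included. ID2 is among them through 201566_x_at, which was measured only on the array where it was high. Both genes were picked with their higher values known, so nothing is read from that share. In the intensity class of ID2, 1 of 4 equal classes of genes, 1.92% passed 2-fold upwards.

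ID3, which often follows BMP signals together with ID1, was read by 207826_s_at. The intensity went from 936 to 1766, a log2 ratio of 0.92 or 1.89-fold, just under the 2-fold threshold. It ranked 226 from the top. With the medians of the arrays made equal instead of the trimmed means, its log2 ratio was 1.01, past the threshold.

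ID1, a BMP target like ID3, had a single probe set. This one, 208937_s_at, read 10723 with the empty vector and 13056 on the array labelled RUNX2, a log2 ratio of 0.28 or 1.22-fold, and 82.7% of measured genes had a lower ratio. Its difference is about the size of the SD between probe sets of a gene. The highest deposited intensities of any probe set were 22450 and 23248, where ID1 had 10723 and 13514, below the top of the range of either array.

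ID4 was barely read at all. Of its 5 probe sets, 4 were under the floor on both arrays, between 4.91 and 24.8. The remaining one, 209293_x_at, read 61.4 and 64.3, slightly above the floor on both, with a log2 ratio of 0.07. Its name too marks probes that may also match other transcripts, and ID4 counts as measured through it alone. No difference in ID4 could be seen at this signal.

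**Figure D2:**
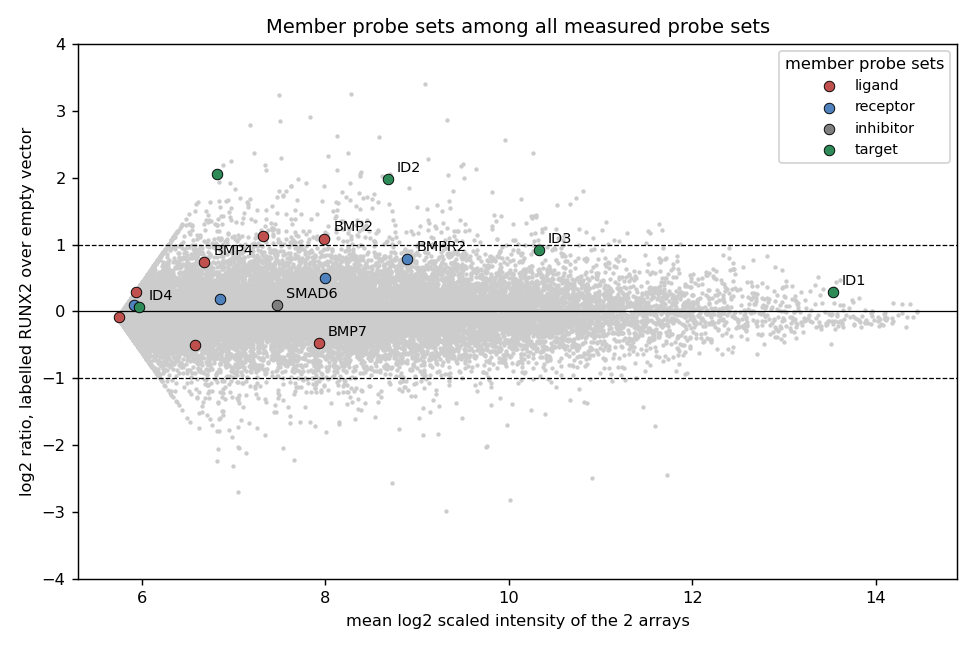
Log2 ratio of the array labelled RUNX2 over empty vector against the mean log2 scaled intensity, for all 23332 measured probe sets with 1 gene symbol (grey) and the 17 of the members (coloured by role, named at the probe set that stands for the gene). Dashed lines mark 2-fold. Both ID2 probe sets lie near a log2 ratio of 2, both BMP2 probe sets just above 1, and ID1 at 0.28.

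The wider pathway was listed by role, in 75 further genes, of which 72 were on the array by the same rule and 46 were measured. Past 2-fold were 1 gene upwards and 2 downwards, against 1.42% and 1.47% of all measured genes. The median log2 ratio was -0.09, near the -0.06 of all measured genes. At 1.5-fold, 4 were higher and 4 lower, against 5.77% and 6.88% of all measured genes.

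The other BMP ligands were dim. Of 11 listed, 4 were measured, none differed by 1.5-fold, and the widest ratio was that of BMP8A, with a log2 ratio of -0.47 at 99.9 and 72.3. Of 10 further receptors and co-receptors, 7 were measured. ACVR2B, a type II receptor shared by activins and some BMPs, went from 430.4 to 199 in its brightest probe set, 2.16-fold lower. The other 2 had log2 ratios of -0.63 and -0.28. Averaged over the 3 it had -0.67, and with an offset in place of a floor the brightest had -0.95, both short of 2-fold.

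Of the 4 SMAD genes that carry the signal, 3 were measured, 1 above and 2 below 0. SMAD5, which BMP type I receptors phosphorylate, had the widest ratio, -0.45 from 1540 to 1124 in its brightest probe set, and between -0.40 and 0.27 in 4 others. SMAD1 had -0.38 (489 and 375). The common partner SMAD4 had 0.10 (452 and 483) in its brightest probe set, with -0.51 and -0.21 in its other measured ones. Averaged over its measured probe sets, SMAD4 had -0.21. SMAD1 and SMAD4 were named after their values were seen. SMAD9 was not measured.

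Among 10 intracellular inhibitors, all of them measured, SKIL, which binds SMAD complexes and represses their targets, was 1.62-fold lower, from 2391 to 1474. Its second probe set had a log2 ratio of -0.52 and a dim one 0.30, and SKIL averaged -0.24 over its 4 measured probe sets. FKBP1A, which binds type I receptors and keeps them inactive, had 0.37 in its brightest probe set and between 0.76 and 0.94 in the other 3. PPM1A, a phosphatase that acts on SMAD proteins, had 0.53 in its brightest probe set and -0.96 in the next. It averaged 0.06 over its 6 measured probe sets, which lay on both sides of 0. The inhibitory SMAD7 had 0.57 (244 and 362), just under 1.5-fold. FKBP1A, PPM1A and SMAD7 were named after their values were seen. Of 15 extracellular antagonists 4 were measured, and FST, encoding follistatin, which binds activins and some BMPs, had a log2 ratio of 0.59 (88.5 and 133), with 41.6, under the floor, and 105 in another probe set. Of 5 enzymes that cleave BMP precursors or chordin, 4 were measured, and their brightest probe sets lay between -0.08 and 0.09, with BMP1 the widest. Dimmer probe sets had up to 0.36 for BMP1 and 0.39 for PCSK5, named after its values were seen.

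Other genes that BMP signals are known to induce went both ways. Of 12 listed, 10 were measured, with 5 above and 5 below 0, where 42.7% of all measured genes were above 0. The homeobox gene DLX2 was at least 3.12-fold higher, from 47.4, under the floor, to 172 in its measured probe set. The homeobox genes MSX2 and MSX1 were 1.70-fold (115 to 195) and 1.53-fold (123 to 188) higher in their brightest probe sets. The other measured probe set of MSX2 had a log2 ratio of 0.24. That of MSX1 read 57.8 and 44.7, the second value under the floor, so that it was at least 1.11-fold lower. GATA3, a transcription factor of the epidermis, was 2.04-fold lower, from 1261 to 619, with 3 probe sets between -1.04 and -0.96. It lies at the 2-fold threshold and fell short of it on the deposited scale (-0.98), with equal medians (-0.94) and with an offset (-0.97). HES1, better known as a Notch target, read 4754 and 3037 in its brightest probe set, 1.57-fold lower, and had a log2 ratio of -0.07 in the other. Of the basic helix-loop-helix factors, to which the partners of ID proteins belong, 4 were measured. Their brightest probe sets were below 0 in 4 of 4, where 57.3% of all measured genes were below 0, and TCF12 was widest at -0.57 (1015 and 684). Its other 3 probe sets were above 0, and the mean over probe sets was above 0 for TCF12 (0.04), TCF3 (0.05) and TCF4 (0.10), the last 2 named after their values were seen.

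**Figure D3:**
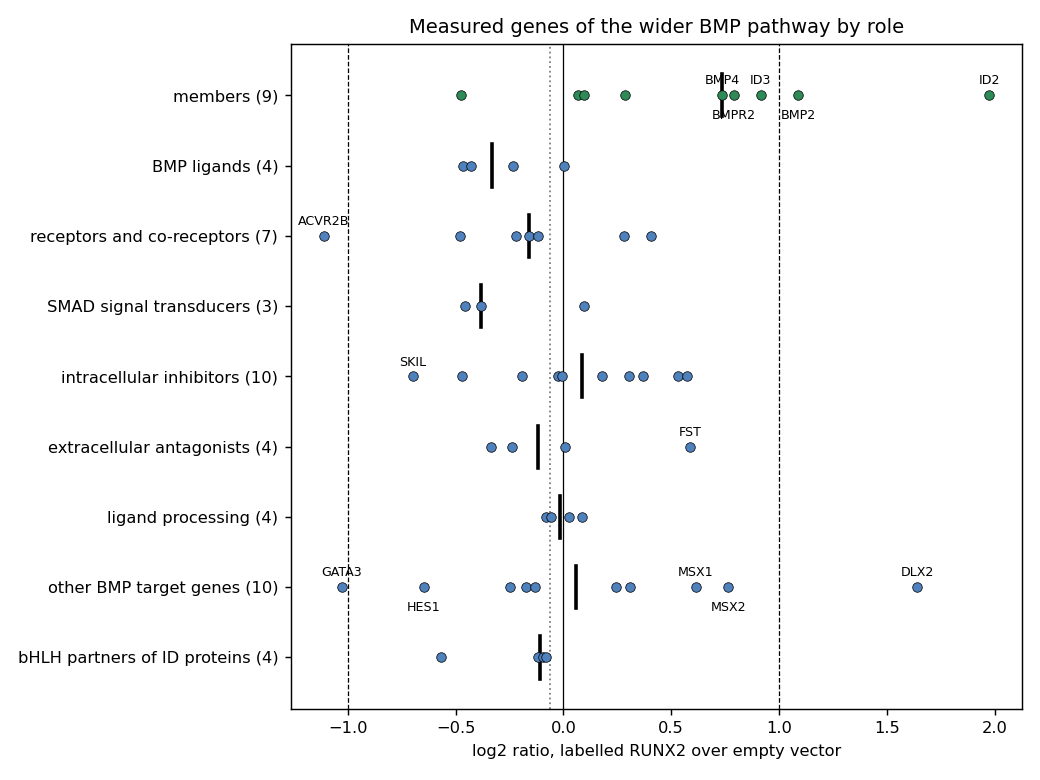
Log2 ratio of the array labelled RUNX2 over empty vector for the 9 measured members (green) and the 46 measured genes of the wider lists (blue), 1 row per list with the number measured, a black bar for the median, dashed lines at 2-fold and a dotted line at the median of all measured genes. Genes of at least 1.5-fold are named. The members have their median at 0.74, and the medians of the other rows lie between -0.38 and 0.08.

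Under 10 other ways of scaling, setting the floor or combining probe sets, each member kept its side of 0 in the settings where it was measured, with the exception of ID4, which went as low as -0.01. The log2 ratio of ID2 ranged from 1.72 to 2.07 and stayed past 2-fold wherever it was measured. BMP2 ranged from 0.88 to 1.18 and fell short of 2-fold when the floor was the 75th percentile or was replaced by an offset. BMP4 ranged from 0.45 to 0.83, BMP7 from -0.49 to -0.19, and BMPR2 from 0.39 to 0.88.

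**Figure D4:**
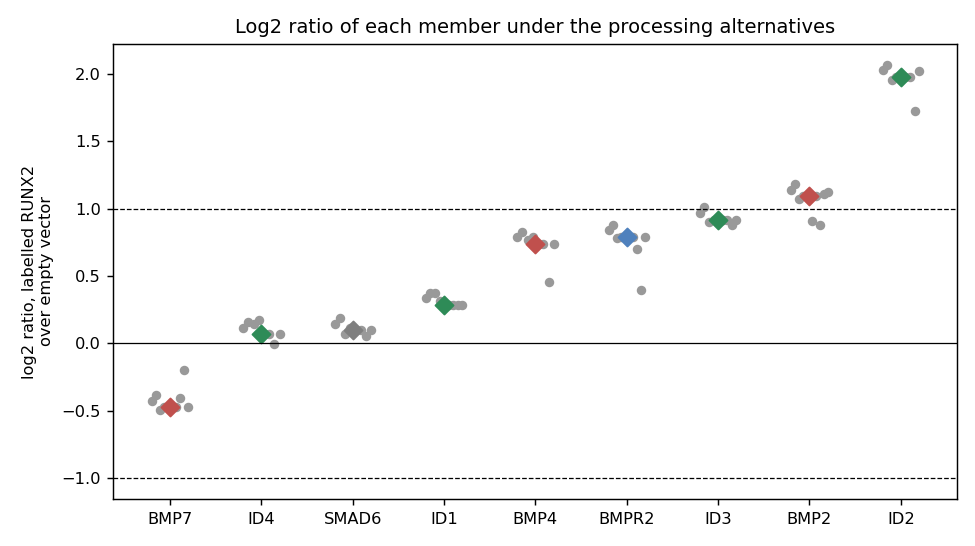
Log2 ratio of each of the 9 measured members under the setting used in the text (coloured diamonds) and under the alternatives in which it could be computed (grey circles), with dashed lines at 2-fold. The spread across settings is narrow for ID1 (0.28 to 0.38) and wider for BMPR2 (0.39 to 0.88).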

How the data were processed

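The table the authors deposited holds a linear intensity for each probe set on each array, with 1 array per group. MAS5 is named in the submitters' processing notes, with no version. The SD of log2 ratios was smallest, 0.21, in the dimmest of 10 intensity classes and 0.47 at most, whereas MAS5 values as a rule vary most where signal is low. In addition, 5.74% and 5.60% of values ended within 0.001 of 0.4 or 0.9. The method of summary and scaling is therefore unknown, and intensities are in arbitrary units. Samples were grouped by title. After 62 control probe sets were left out, 54613 remained, of which 41091 had 1 gene symbol. Symbols were updated by gene ID through a RefSeq table. A factor of 0.966 brought the array labelled RUNX2 to the 2% trimmed mean of the other. Where a value lay under the median of its array, that median replaced it, and the ratio is written "at least". The measured probe set of highest mean log2 intensity stood for its gene. With 1 array per group no test was made. Upstream windows were searched for fixed letters on both strands. Of the members, 8 had a window.

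The members and lists were chosen with earlier results of these data known. Named were all members and, per wider list, genes of at least 1.5-fold or else the widest, beside genes marked in the text as named after their values were seen. Since 2 arrays allow no measure of likeness, no gene was named by its pattern. Scripts (Python 3.11.15, numpy 2.4.6, pandas 2.3.3, statsmodels 0.14.6) were tested on simulated arrays. Alternatives were no scaling factor, equal medians, loess (span 0.4) or quantile normalization. The floor was also set to the 25th or 75th percentile, left out, or replaced by an offset. Further alternatives were the mean over probe sets, leaving out _x_at and _s_at probe sets, and thresholds of 1.5-fold and 4-fold.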

Additional observations from a re-analysis of the deposited data

Results flagged for a closer look

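The annotation assigns 213931_at to ID2 and the pseudogene ID2B together, so it was counted for neither, and it is given because it carries signal above the floor outside the member probe sets. Its intensity went from 214 to 486 in the direction of the RUNX2 label, a log2 ratio of 1.19 or 2.28-fold. Which of the transcripts it read was not tested.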

How the results depend on the processing

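With 1 array per group there is no replicate to leave out. No paired analysis was possible because each group holds 1 array. The number of members at least 2-fold higher was 2 and became 1 with the floor at the 75th percentile (ID2), with an offset instead (ID2), and without _x_at and _s_at probe sets (BMP2, the 1 higher of 3 members left), while 5 passed at 1.5-fold and 0 at 4-fold. The members' median of 0.74 became 0.39 with the mean over probe sets and 0.45 with the offset. Wider genes at least 2-fold higher went from 1 to 0 with the floor at the 75th percentile, and to 4 at 1.5-fold and 0 at 4-fold. Wider genes at least 2-fold lower went from 2 to 1 on the deposited scale, with equal medians and with the mean over probe sets, to 0 with the offset and at 4-fold, and to 4 at 1.5-fold. Over all genes, 181 higher and 187 lower became 112 and 79 with the floor at the 75th percentile, 114 and 91 with the offset, 735 and 876 at 1.5-fold, and 22 and 11 at 4-fold. Of all genes past 2-fold, 49.2% were higher, and 62.7% with equal medians. The cause of these shifts was not tested, apart from the thresholds and the fewer probe sets. Signal near the floor limits ID4, BMP4 and the dim probe sets of BMP7 and BMPR2.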
